A study of Mus musculus with 2 samples.

Results

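A set of 10 chaperone genes were followed in mouse embryonic stem cells (mESCs) that overexpress polyadenylated TERRA, the telomeric repeat-containing RNA transcribed from chromosome ends. They are the rows of the expression table that carry the symbols Hsp90aa1, Hsp90ab1, Hspa8, Hspa1b, Hsph1 and Dnajb1, which act in the cytosol, and Hspa5, Hsp90b1, Calr and Pdia4, which act in the endoplasmic reticulum (ER). All 10 symbols were found among the 18888 genes of the table, 6 cytosolic and 4 ER chaperones. Both groups are 46C mESCs, an embryonic stem cell line with a green fluorescent reporter of neural commitment, kept on gelatin at passages 21 to 24. The PB group carries the empty PiggyBac (PB) vector and the PB-TERRA group carries the same vector with a fragment of telomeric repeats, so both share the vector. Whether the cells were a pool or a clone, and which promoter drives the insert, is not given in the sources used here. Total RNA of each group was sequenced as 1 library, so no replicate spread exists, no p-value is given, and every comparison below is between 2 libraries.

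Chaperones bind unfolded or partly folded proteins and release them in cycles of ATP hydrolysis. In the cytosol, J-domain proteins such as Dnajb1 hand substrates to Hsp70, nucleotide exchange factors such as Hsph1 reset Hsp70, and Hsp90 completes the folding of kinases and receptors. When unfolded protein accumulates in the cytosol, the transcription factor HSF1 binds heat shock elements and raises the inducible genes, of which Hspa1a and Hspa1b are the classical ones. In the ER, the Hsp70 protein Hspa5 (BiP), the Hsp90 protein Hsp90b1 (Grp94), the lectin calreticulin and the disulfide isomerases fold secreted and membrane proteins. Their genes answer to the unfolded protein response, whose factors ATF6 and XBP1 bind ER stress elements.

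Exact matches to the promoter elements through which these responses act are printed to show which members hold them. Only the letters given below were searched, so an element that differs from them is missed. RefSeq promoters (GRCm38.p6, 250 bases before to 50 bases after an annotated start) were found for 7 of the 10 members: Hspa1b, Hsph1, Dnajb1, Hspa5, Hsp90b1, Calr and Pdia4. The ER stress element was searched as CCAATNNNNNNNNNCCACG on both strands and occurred in 39 of 32851 promoters of this length (0.119%). The heat shock element of 3 units was searched as GAANNTTCNNGAA or TTCNNGAANNTTC, found in 0.603% of promoters, and the element of 2 units, which lies inside it, as GAANNTTC or TTCNNGAA, found in 15.1%. Each line gives the strand of the gene, 5′ to 3′, with the match in capitals; a match on the opposite strand is printed as its complement.
Hspa5, chr2:34772020-34772048 (+), ER stress element: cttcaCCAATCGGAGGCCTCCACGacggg
Hsp90b1, chr10:86705633-86705661 (-), ER stress element: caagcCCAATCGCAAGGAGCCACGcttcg
Hsp90b1, chr10:86705528-86705556 (-), ER stress element on the opposite strand: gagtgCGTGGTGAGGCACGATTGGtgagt
Calr, chr8:84847070-84847098 (-), ER stress element on the opposite strand: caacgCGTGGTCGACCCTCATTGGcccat
Hsph1, chr5:149636280-149636308 (-), heat shock element of 3 units: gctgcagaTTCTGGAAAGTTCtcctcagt
Hsph1, chr5:149636352-149636379 (-), heat shock element of 2 units: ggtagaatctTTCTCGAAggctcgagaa
Hspa1b, chr17:34959325-34959352 (-), heat shock element of 2 units: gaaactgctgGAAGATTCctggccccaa
Of the ER chaperones, 3 of 4 held the ER stress element, at positions -65 to -47 from the start in Hspa5, -212 to -194 and -107 to -89 in Hsp90b1, and -162 to -144 in Calr. The promoter of Pdia4 held none, and neither did those of Hspa1b, Hsph1 and Dnajb1. The heat shock element of 3 units occurred only in Hsph1 among these 7 genes, from 16 to 28 bases after the nearer of its 2 annotated starts. The promoter of Dnajb1 held no exact match to either element at either of its 2 annotated starts. The CCAAT box, which the factor NF-Y binds and which begins the ER stress element, was in 37.4% of all promoters and in those of all 7 members searched, cytosolic and ER alike (in Dnajb1 at 1 of its 2 starts). These matches describe letters in a window and were not tested for binding, and the lack of a match does not show that a gene lacks the response.

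**Figure D1:**
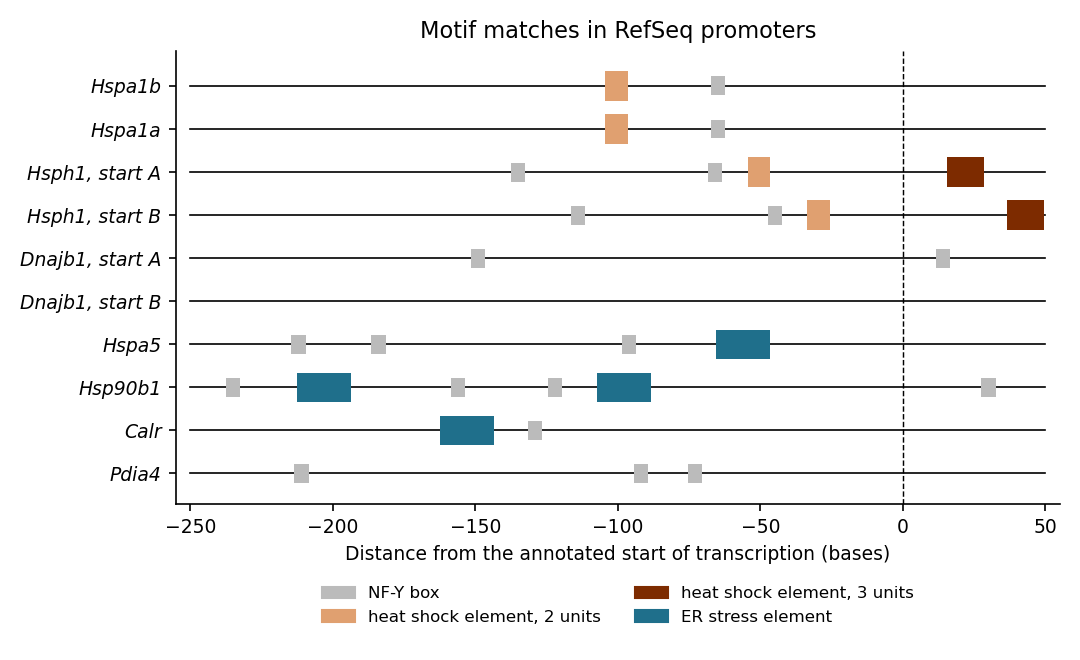
Positions of motif matches from 250 bases before to 50 bases after each annotated start (dashed line), with cytosolic genes and the copy Hspa1a above the ER genes. ER stress elements lie in Hspa5, Hsp90b1 and Calr, and heat shock elements in Hspa1b, Hspa1a and Hsph1; Hsph1 and Dnajb1 have 2 annotated starts each.

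Levels are FPKM, fragments scaled to the length of the transcript and to the mapped reads, which corrects for gene length and so allows levels of different genes to be compared. Each change is the log2 ratio of PB-TERRA to PB after 0.1 was added to both FPKM values. The table gives no read numbers. Reads were estimated from FPKM, gene length and the spacing of low values, which gave about 24779000 reads for PB and 24868000 for PB-TERRA. The 95% intervals of the log2 ratios are exact (Clopper-Pearson) on these reads and cover counting error only, not the difference between cultures. The 12263 genes with 1 FPKM or more in PB, in PB-TERRA or in both passed the filter, and their log2 ratios had a median of -0.0044 and an SD of 0.31. Among them, 1734 genes had a mean of at least 50 FPKM, and 90% of these lay between -0.25 and 0.19 on the log2 scale.

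All 10 chaperones passed the filter, and 8 had a mean of at least 50 FPKM. None (0 of 10) differed between the libraries by 0.25 or more on the log2 scale, which is a factor of 1.19. Of all genes past the filter, 8.02% lay at 0.25 or above and 9.6% at -0.25 or below. Of the genes with at least 50 FPKM, these shares were 2.19% and 5.13%. The log2 ratios of the chaperones ran from -0.04 to 0.13, with a median of 0.02. By sign, 6 were higher and 4 lower in PB-TERRA. Over all genes past the filter, 5962 were higher and 6244 lower, and of those with at least 50 FPKM, 813 and 920. With each library rescaled to the same sum of FPKM (TPM), 9 chaperones were higher and 1 lower. TPM adds 0.04 to the log2 ratio of every gene, and the signs of all genes were not counted with it. The counting interval lay above 0 for 4 chaperones, below 0 for 0, and held 0 for 6. With TPM it lay above 0 for 6 and held 0 for 4, as Hspa8 and Hspa5 joined the 4, beside 39.8% of genes above 0 and 22.8% below 0 with at least 50 FPKM. Such intervals lay above 0 for 18.2% and below 0 for 17.6% of genes past the filter, and for 27% and 32.1% of genes with at least 50 FPKM. All 4 chaperones with an interval above 0 as deposited are in the latter group.

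**Figure D2:**
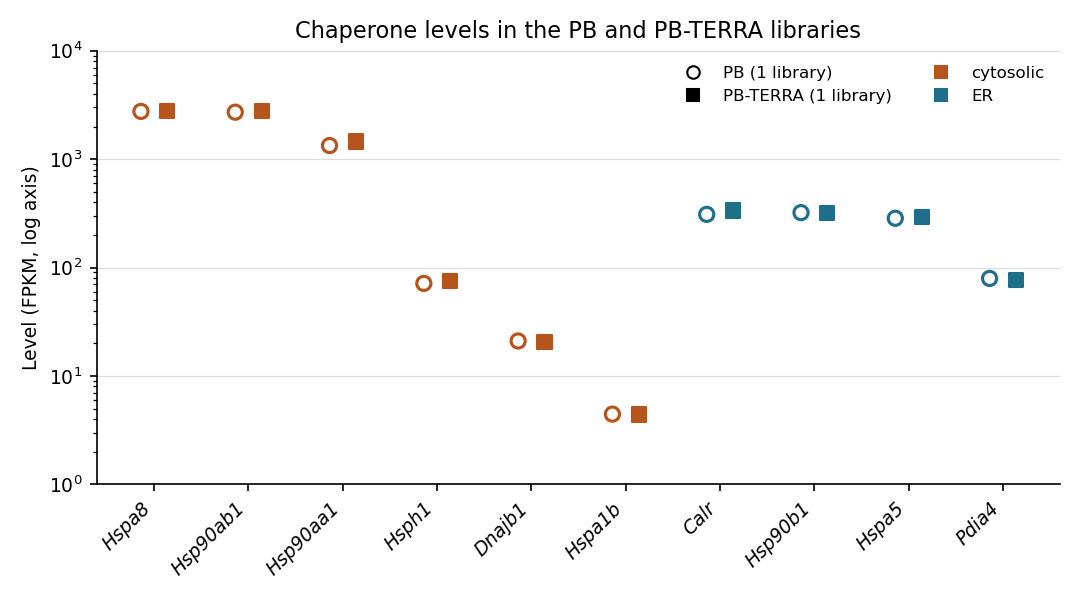
FPKM of each chaperone on a log axis in the PB library (open circles) and the PB-TERRA library (filled squares), with 1 library per condition and no error bars. Levels span from 4.41 FPKM in Hspa1b to 2797.02 FPKM in Hsp90ab1, and the symbols of the libraries lie at nearly the same height in each gene.

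Hspa8 encodes Hsc70, the constitutive Hsp70 of the cytosol. It had 2756.06 FPKM in PB and 2770.20 FPKM in PB-TERRA, the seventh highest mean of the table, from 135875 and 137115 estimated reads. The log2 ratio was 0.01, and its 95% counting interval of -0.0035 to 0.02 held 0 as deposited. The interval lay above 0 in 5 of 6 scalings and corrections, among them centring on the median of all genes. Hsp90ab1, the constitutive Hsp90, had 2711.51 FPKM in PB and 2797.02 FPKM in PB-TERRA, with a log2 ratio of 0.04 (0.03 to 0.05). Hsp90aa1, the more inducible Hsp90, had 1334.47 FPKM in PB and 1455.73 FPKM in PB-TERRA. Its log2 ratio of 0.13 (0.11 to 0.14) was the highest of the 10 chaperones as deposited, although Calr exceeded it with the correction for length and with that for GC content and length. The value of Hsp90aa1 stayed between 0.09 and 0.18 under every alternative scaling, correction and pseudocount tried. It lay at percentile 88.8 of the genes with at least 50 FPKM. These 3 genes held 98.6% of the FPKM of the cytosolic chaperones in either library. Of the 74 genes averaging 1000 FPKM or more, 19 were higher and 55 lower in PB-TERRA, with a median log2 ratio of -0.09, and all 3 of these chaperones were among the 19.

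The factors that drive the Hsp70 cycle were lower in level by more than an order of magnitude. Hsph1 (Hsp110), a nucleotide exchange factor of Hsp70, had 71.39 FPKM in PB and 75.38 FPKM in PB-TERRA, a log2 ratio of 0.08 (0.03 to 0.13). Dnajb1 (Hsp40), a J-domain partner of Hsp70, had 21.00 FPKM in PB and 20.54 FPKM in PB-TERRA. Its log2 ratio was -0.03 (-0.14 to 0.07), and its sign turned with TPM and with the correction for GC content and length. Hspa1b, a stress-inducible Hsp70, had the lowest level of the 10, with 4.44 FPKM in PB and 4.41 FPKM in PB-TERRA. From 297 and 296 estimated reads its log2 ratio was -0.0096 (-0.25 to 0.23), with a sign that also turned under 3 of the 7 alternatives. Hspa1b stood at 0.161% of the level of Hspa8 in PB and at 0.159% in PB-TERRA.

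In the ER class as deposited, the interval of Calr alone excluded 0, while that of Hspa5 did so too in 5 of 6 scalings and corrections. That of Hsp90b1 lay above 0 with the correction for expression level and below 0 with the correction for GC content and length. Calr encodes calreticulin, which binds the sugars of new glycoproteins and stores calcium. It had 309.41 FPKM in PB and 336.21 FPKM in PB-TERRA, a log2 ratio of 0.12 (0.09 to 0.15), at percentile 87.9 of the genes with at least 50 FPKM. Hspa5, the Hsp70 of the ER and a repressor of the stress sensors, had 284.75 FPKM in PB and 290.31 FPKM in PB-TERRA, with a log2 ratio of 0.03 (-0.0026 to 0.06). Hsp90b1 had 320.91 FPKM in PB and 315.80 FPKM in PB-TERRA. Its log2 ratio was -0.02 (-0.05 to 0.0046), and the sign turned with TPM and with the correction for expression level. Pdia4, a protein disulfide isomerase, had 79.29 FPKM in PB and 77.12 FPKM in PB-TERRA, with a log2 ratio of -0.04 (-0.10 to 0.02). The 3 genes that hold an ER stress element, Hspa5, Hsp90b1 and Calr, had log2 ratios of 0.03, -0.02 and 0.12.

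**Figure D3:**
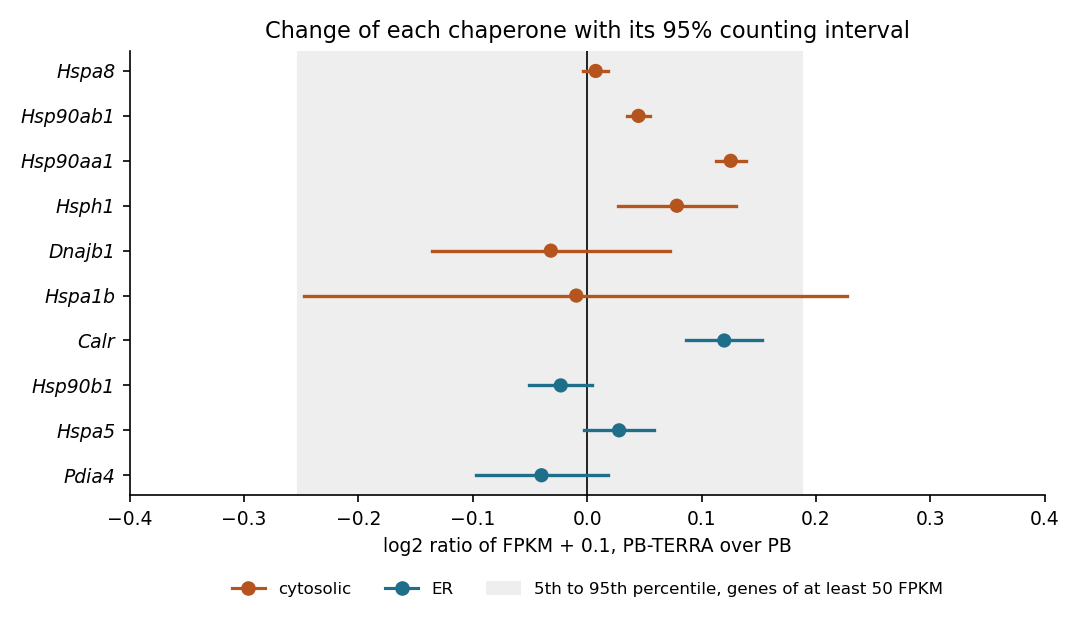
Log2 ratio of each chaperone (points) with its 95% counting interval (lines), cytosolic genes above ER genes, and the 5th to 95th percentile of genes with at least 50 FPKM as a grey band. All 10 points lie inside the band, which runs from -0.25 to 0.19, and the intervals of Hsp90ab1, Hsp90aa1, Hsph1 and Calr lie above 0.

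The cytosolic class was compared with the ER class. The median log2 ratio was 0.03 over the 6 cytosolic chaperones, with a range from -0.03 to 0.13, and 0.0024 over the 4 ER chaperones, with a range from -0.04 to 0.12. The medians differed by 0.02, and 3 of the 4 ER values lay within the cytosolic range, so the classes overlapped. Among the cytosolic chaperones 4 were higher and 2 lower, and among the ER chaperones 2 were higher and 2 lower. With TPM, which adds 0.04 to the log2 ratio of every gene, these counts were 6 and 0 in the cytosol, and 3 and 1 in the ER. The intervals lay above 0 for 3 cytosolic genes and 1 ER gene, and with TPM for 4 and 2. Among all genes with at least 50 FPKM these shares were 27% as deposited and 39.8% with TPM. In summed FPKM, the cytosolic chaperones held 6.94 times the level of the ER chaperones in PB and 6.99 times in PB-TERRA. The cytosolic sum was 6899 FPKM in PB against 7123 FPKM in PB-TERRA, and the ER sum 994.4 FPKM against 1019 FPKM. Both sums were thus slightly higher in PB-TERRA, while the sum over all genes was lower, at 497560 FPKM in PB against 484632 FPKM in PB-TERRA. As FPKM is already scaled to the reads of each library, a lower sum of FPKM does not mean less RNA.

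**Figure D4:**
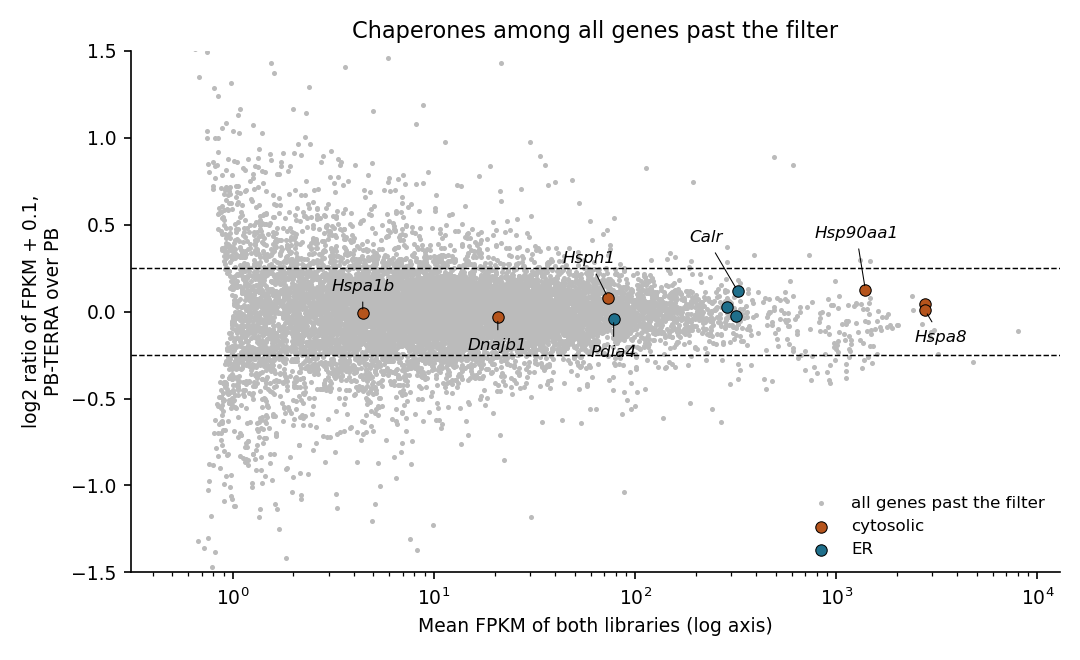
Log2 ratio against mean FPKM (log axis) for the 12263 genes past the filter (grey) and for the chaperones (colour), with dashed lines at 0.25 and -0.25. All 10 chaperones lie between the dashed lines; 50 genes beyond 1.5 in either direction are outside the axis.

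Ratios between chaperones inside a library do not depend on how the library was scaled. They can still shift with corrections that differ between genes, and the intervals below do not cover this. Hsp90aa1 stood at 0.492 of the level of Hsp90ab1 in PB and at 0.520 in PB-TERRA, a log2 change of 0.08 (95% interval 0.06 to 0.10, from counting error on both genes). With GC content and length taken off, the log2 ratios of Hsp90aa1 and Hsp90ab1 were 0.09 and 0.08, so this change nearly vanished. With length alone taken off they were 0.13 and 0.08. Hspa8 was 1.02 times Hsp90ab1 in PB and 0.990 times in PB-TERRA, so the order of the most abundant pair was exchanged. That change was -0.04 on the log2 scale (-0.05 to -0.02). The order of the ER chaperones was also exchanged, as Hsp90b1 exceeded Calr in PB and Calr exceeded Hsp90b1 in PB-TERRA. Calr stood at 0.964 of Hsp90b1 in PB and at 1.06 in PB-TERRA, a log2 change of 0.14 (0.10 to 0.19), the largest between members of these pairs apart from the near-identical Hsp70 copies below. Calr to Hspa5 changed from 1.09 to 1.16, and Pdia4 to Hspa5 from 27.8% to 26.6%. Calr and Canx (calnexin), its membrane-bound relative, stayed closer, at a ratio of 1.99 in PB and 2.04 in PB-TERRA (log2 change 0.04, -0.0075 to 0.08). The ER Hsp70 stood at 10.3% of the cytosolic Hspa8 in PB and at 10.5% in PB-TERRA (log2 change 0.02, -0.01 to 0.05). The ER Hsp90, Hsp90b1, stood at 11.8% of Hsp90ab1 in PB and at 11.3% in PB-TERRA (log2 change -0.07, -0.10 to -0.04).

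Several of these genes have close copies in the genome, and how the counting divided reads among them is not given in the sources used here. The longest coding transcript of each gene in GENCODE M21 (GRCm38) was therefore compared with all other annotated genes in stretches of 50 bases. Of the stretches of Hspa8, 74.8% also occur in other genes, chiefly in the pseudogene Gm15459 and in Gm26825, and of Hsp90aa1 58.5%, chiefly in the pseudogene Gm12346. None of those genes has a row in the table under its symbol, so the share found in genes of the table is 0% for both, against 62.3% for Hspa1b. The values of Hspa8 and Hsp90aa1 are uncertain where reads of such copies were counted in them or lost from them, and so are the small differences between them and other genes. The share found in any other gene was 13.8% for Hsp90b1, 4.49% for Hsp90ab1, 0.468% for Calr and 0.441% for Dnajb1. It was 0 for Hsph1, Hspa5 and Pdia4. The share found in genes of the table was 10.1% for Hsp90b1, through 1810014B01Rik, and 1.3% for Hsp90ab1. The table also has a row under the symbol Steap2, a metalloreductase, whose annotation in the table names Hsp70. The rows of Jmjd8 and Ncln, which are not Hsp70 genes, carry the same entry, so it does not by itself identify an Hsp70 gene. The Steap2 row had 1213.78 FPKM in PB and 1243.42 FPKM in PB-TERRA at a length of 630 bases, a log2 ratio of 0.03. No stretch of 50 bases was shared between Hspa8 and the annotated Steap2 transcripts. Whether reads of an Hsp70 gene lie in that row was not tested.

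The stress-inducible pair needs the same caution. Hspa1a and Hspa1b lie next to each other on chromosome 17, each with 1 exon, and 62.3% of the stretches of Hspa1b occur in Hspa1a. Their promoters were identical at 296 of 300 bases, and the heat shock element printed for Hspa1b is also that of Hspa1a, at chr17:34972243-34972270 (-). Hspa1a had 1.25 FPKM in PB and 1.82 FPKM in PB-TERRA, from 83 and 121 estimated reads. Its log2 ratio was 0.51 with the pseudocount, and the 95% counting interval of the ratio without it was 0.12 to 0.96. Hspa1b, by contrast, had nearly the same value in both libraries. Summed, which does not depend on a split between them, the pair had 380 reads in PB against 417 in PB-TERRA, and the interval of the log2 ratio of 0.13 (-0.08 to 0.33) included 0.

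A list of 15 heat shock genes and related genes was followed next, and all of them passed the filter. Whether each answers to heat shock in these cells was not tested. In PB-TERRA 10 of the 15 were higher and 5 lower, with a median log2 ratio of 0.04. At 0.25 or above lay 1 (Hspa1a) and at -0.25 or below 2 (Hspb8 and Hspa1l), and with TPM these counts were 2 and 1, so their balance turned. Of all genes past the filter, 8.02% and 9.6% lay past these thresholds as deposited, which is the background for the lists below as well. The interval of Hspa1l (-0.80 to 0.20, from 77 and 63 estimated reads) held 0. Hspb8, a small heat shock protein of chaperone-assisted autophagy, had 13.99 FPKM in PB and 11.21 FPKM in PB-TERRA, a log2 ratio of -0.32 (-0.50 to -0.14). Ubb, a polyubiquitin gene and the most abundant of the list, had 1218.01 FPKM in PB and 1104.30 FPKM in PB-TERRA, a log2 ratio of -0.14 (-0.16 to -0.12). Of the heat shock factors, Hsf1 had 26.74 FPKM in PB and 26.04 FPKM in PB-TERRA, and Hsf2 had 20.79 and 21.27 FPKM. Hsbp1, which binds HSF1 and was the most abundant of its list, had 44.04 FPKM in PB and 46.88 FPKM in PB-TERRA, with a log2 ratio of 0.09 (-0.03 to 0.21). Hsf4 did not pass the filter, and 0 of the other 3 genes of that list lay past 0.25.

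The partners of the cytosolic chaperones were described in the same way. Of 21 co-chaperones of Hsp70 and Hsp90, 12 were higher and 9 lower (16 and 5 with TPM), with a median log2 ratio of 0.04, and 1 lay at -0.25 or below. That gene was Bag2, an Hsp70 exchange factor that inhibits the ubiquitin ligase Stub1, with 7.92 FPKM in PB and 6.30 FPKM in PB-TERRA and a log2 ratio of -0.33 (-0.57 to -0.09). Stip1 (Hop), which links Hsp70 to Hsp90 and was the most abundant, had 295.10 FPKM in PB and 304.19 FPKM in PB-TERRA, a log2 ratio of 0.04 (0.01 to 0.08). The folding ring CCT, which folds actin and tubulin, and its partner prefoldin gave 5 higher and 9 lower genes of 14, with a median of -0.07 and 0 past 0.25. With the median of genes of similar expression taken off, they split 7 and 7. Cct6a, the most abundant of them, had 401.63 FPKM in PB and 396.44 FPKM in PB-TERRA, a log2 ratio of -0.02 (-0.05 to 0.0084). The interval lay below 0 for 7 of the 14 genes and above 0 for 1, beside shares of 32.1% and 27% among all genes with at least 50 FPKM. Of 13 mitochondrial chaperones, 6 were higher and 7 lower (8 and 5 with TPM), with a median of -0.0070 and 0 past 0.25. Hspd1 (Hsp60), the most abundant, had 450.82 FPKM in PB and 474.23 FPKM in PB-TERRA, a log2 ratio of 0.07 (0.05 to 0.10).

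Relatives of the members in other compartments were chosen after their values were seen. Hspa9 (mortalin), the Hsp70 of the mitochondrion, had 305.55 FPKM in PB and 346.12 FPKM in PB-TERRA, a log2 ratio of 0.18 (0.15 to 0.21), above each of the 10 chaperones. Trap1, the Hsp90 of the mitochondrion, had 89.65 FPKM in PB and 85.12 FPKM in PB-TERRA, a log2 ratio of -0.07 (-0.13 to -0.02). Hspa4, like Hsph1 an exchange factor of the Hsp110 group, had 163.53 FPKM in PB and 175.32 FPKM in PB-TERRA, a log2 ratio of 0.10 (0.07 to 0.13).

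**Figure D5:**
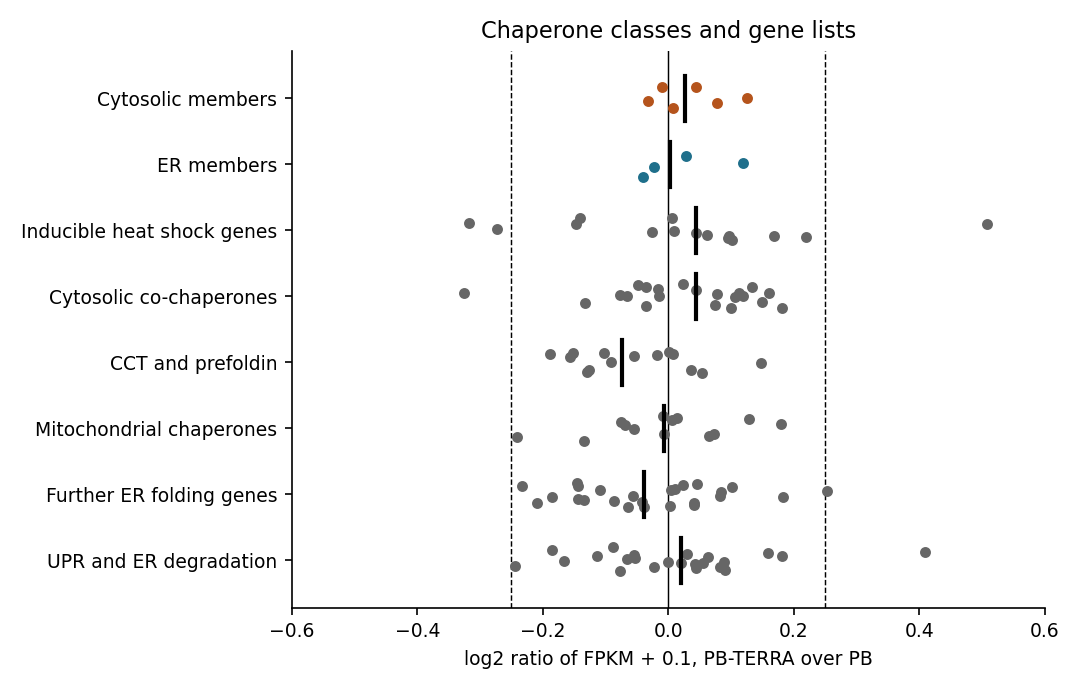
Log2 ratios of the members and of the gene lists (1 point per gene past the filter, median as a black bar), with dashed lines at 0.25 and -0.25; points are spread vertically only for legibility. The heat shock factors, cell type markers and reference genes are not shown. Among the classes and lists shown, the medians run from -0.07 for CCT and prefoldin to 0.04 for inducible heat shock genes and co-chaperones, and few genes lie past the dashed lines.

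In the ER, 25 of 26 further chaperones and folding enzymes passed the filter, with 12 higher and 13 lower, a median log2 ratio of -0.04, and 1 gene past 0.25. That gene was Mesdc2, a chaperone of LDL receptor family proteins, with 16.59 FPKM in PB and 19.78 FPKM in PB-TERRA and a log2 ratio of 0.25 (0.16 to 0.34). Mesdc2 stood just at the threshold, and 0 genes of the list were past it with a pseudocount of 1 or with the correction for length or for expression level, against 2 with GC content and length taken off. Pdia3, the isomerase that works with calreticulin and calnexin and the most abundant of this list, had 212.63 FPKM in PB and 225.30 FPKM in PB-TERRA, a log2 ratio of 0.08 (0.05 to 0.12). Of these ER genes, 21 had a RefSeq promoter and 5 of them held the ER stress element, namely Canx, Pdia6, Dnajc3, Creld2 and Ero1lb. Their log2 ratios were 0.08, -0.11, 0.0028, -0.14 and 0.12, so genes with the element lay on both sides of 0. Ero1lb did not pass the filter. Of 21 genes of ER stress sensing and degradation with a promoter, Syvn1 and Derl3 held it, with log2 ratios of 0.08 (-0.02 to 0.18) and 0.02 (-0.27 to 0.32). The heat shock element of 3 units was held by Chordc1, 1 of 12 inducible heat shock genes with a promoter, and by Dnajb6, 1 of 19 co-chaperones. Their log2 ratios were 0.22 (0.13 to 0.31) and 0.16 (0.11 to 0.22), beside 0.08 in Hsph1.

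The genes that sense unfolded protein in the ER, and those that remove it, numbered 23. Of these, 12 were higher, 10 lower and Os9 equal, with a median of 0.02, and 1 lay at 0.25 or above. With the median of genes of like length subtracted, 11 were higher and 12 lower. The gene past 0.25 was Ddit3 (CHOP), a transcription factor of prolonged ER stress, with 4.69 FPKM in PB and 6.26 FPKM in PB-TERRA from 88 and 118 estimated reads, a log2 ratio of 0.41 (0.0061 to 0.83). Atf4, which acts upstream of Ddit3 and was the most abundant of the list, had 93.63 FPKM in PB and 97.87 FPKM in PB-TERRA, a log2 ratio of 0.06 (-0.0013 to 0.13). Xbp1, named here after its value was seen, had 29.52 FPKM in PB and 25.96 FPKM in PB-TERRA, a log2 ratio of -0.18 (-0.29 to -0.08). Atf6, also named after its value was seen, went the other way, with 6.99 FPKM in PB and 7.94 FPKM in PB-TERRA. Its log2 ratio was 0.18 (0.08 to 0.29). FPKM per gene do not show splicing, so the spliced, active form of Xbp1 was not measured.

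The cell type was checked against its markers. Of 10 embryonic stem cell markers, 10 passed the filter, the most abundant being Dppa5a with 1162.50 FPKM in PB and 1039.92 FPKM in PB-TERRA, beside Pou5f1 with 744.67 FPKM in PB and 773.31 FPKM in PB-TERRA, Nanog with 186.41 and 173.37, and Sox2 with 133.91 and 144.88. The 8 fibroblast markers summed to 19.13 FPKM in PB and 23.05 FPKM in PB-TERRA, and with no filter 4 were higher and 4 lower. Col1a1, a collagen and the most abundant of them by the mean of both libraries though not in PB, had 7.99 FPKM in PB and 12.14 FPKM in PB-TERRA. Its log2 ratio was 0.60 (0.50 to 0.71). Col1a2 had 0.92 and 1.37 FPKM and passed the filter only through PB-TERRA, while Thy1 had 9.16 and 8.39 FPKM. Below the filter, Col3a1 had 0.21 and 0.47 FPKM, and the intervals of all 3 collagens lay above 0, whereas Fbln2 had 0.35 and 0.20 FPKM and an interval below 0 (-1.67 to -0.01). Lum and Postn were at no more than 0.08 FPKM. The 7 primitive endoderm markers summed to 9.16 FPKM in PB and 12.81 FPKM in PB-TERRA, and with no filter 6 were higher and 1, Afp at no more than 0.04 FPKM, was lower. Dab2, the most abundant, had 5.04 FPKM in PB and 6.35 FPKM in PB-TERRA, a log2 ratio of 0.33 (0.17 to 0.50). Gata6, a transcription factor of this lineage, had 1.22 FPKM in PB and 2.26 FPKM in PB-TERRA, a log2 ratio of 0.84 (0.52 to 1.26). Pdgfra had 0.51 and 1 FPKM and passed the filter only through PB-TERRA, and the interval of Gata4, with 1.86 and 2.31 FPKM, held 0. Primitive endoderm secretes basement membrane proteins, and the part of these cells in the ER chaperone values was not tested. In bulk RNA, a change in the share of cells and a change per cell cannot be told apart. Rpl19, to which the paper normalized expression in its PCR, had a log2 ratio of -0.06 (1466.58 FPKM in PB and 1405.13 in PB-TERRA). Rplp0, whose primers the paper lists after those for telomere length, is not named there as a reference for expression. Its log2 ratio was -0.20 (1575.34 FPKM in PB and 1371.70 in PB-TERRA).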

How the data were processed

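Total RNA from 46C mESCs with PB or PB-TERRA was sequenced on the BGISEQ-500, 1 library per condition. The submitters' processing notes name HISAT, Cufflinks and the mouse build mm9, without version; the annotation and the treatment of reads with several matches are not given in the sources used here. The authors deposited 1 table that gives 18888 genes a value in each library, read here as FPKM because the values scale with gene length and depth; the header names no unit, and values have 2 decimals and a floor of 0.01. Its columns of the authors' comparison (log2 fold change, p-value and FDR) were not used.

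Changes are log2 ratios of FPKM + 0.1, which understates changes of low genes, with a filter of 1 FPKM and a threshold of 0.25. For the depth, the bases taken off each length (114.4 in PB, 113.6 in PB-TERRA) followed from the sum of FPKM times length. The number of reads followed from low values of short genes, of which 81.8% in PB and 86.4% in PB-TERRA were within 0.2 of a whole read, against 40% if spread evenly. The procedure was tested on simulated data. Intervals cover counting error only, and PCR copies are not independent molecules.

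The members and gene lists were chosen with earlier results of these data known. Named are all members, and of each list its most abundant gene and genes past 0.25 with at least 5 FPKM in 1 library (at most 4 in each direction); Hspa1a, Rpl19, Rplp0, Pou5f1, Nanog and Sox2; other genes were named after their values were seen. Coordinates are of GRCm38, not of mm9, and the table has none. Alternatives were the pseudocount, the scaling, the filter, corrections for length and expression (50 bins), class means and sums, and the treatment of Hspa1a. GC content with length (10 by 10 bins) was added after seeing the data, and GC content was found for 94.2% of genes past the filter. The scripts ran under Python 3.11.15 with matplotlib 3.10.9, scipy 1.17.1, pandas 2.3.3 and numpy 2.4.6.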

Additional observations from a re-analysis of the deposited data

How the results depend on the processing

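Under the 7 alternatives run for single chaperones, 0 of the 10 reached 0.25 in either direction. The difference between the class medians, with a value of 0.02, stayed from 0.0056 to 0.059 over its 12 alternatives. All 12 lay within a tolerance built from the typical widths of the single-gene counting intervals of each class. This tolerance is not a counting error of the difference itself. Hsp90aa1, Hsp90ab1, Hspa8, Hsph1, Hspa5 and Calr stayed above 0 and Pdia4 below 0 under these 7, while Dnajb1, Hsp90b1 and Hspa1b changed sign under some. Of 70 values of single chaperones, 18 moved by more than their counting error. The cytosolic median moved to 0.0641 with TPM, to 0.0667 with the median of genes of similar expression taken off, and to 0.0616 with Hspa1a and Hspa1b summed. The ER median moved to 0.0403 with TPM, to 0.0611 with the median of genes of similar expression taken off, and to 0.0359 as the log2 ratio of summed FPKM. TPM shifts every gene by 0.04 by construction. Over 6 scalings and corrections, a count added after seeing the data, the intervals of 4 to 7 chaperones lay above 0 and that of 1 below 0 with GC content and length taken off, against 4 and 0 as deposited. With GC content and length taken off, which was chosen after seeing the data, the ER median was -0.0091. The number of genes past 0.25 was 2160, and it was 5537 with no filter, 897 with a mean of at least 5 FPKM, 127 with a mean of at least 50 FPKM, and 112 with a threshold of 1. No paired analysis was possible because each condition has 1 library. At this depth, the interval of Hspa1b allows a log2 ratio from -0.25 to 0.23.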
